A study of Mus musculus with 72 samples.

Results

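The serpins are a family of proteins that share a fold and, for most members, a way of inhibiting proteases. The family was read here from the mRNA arrays of liver and lung as all non-control probes whose transcript accession maps to a mouse symbol made of Serpin, a clade letter from a to i and a digit, kept where the scanner software found the probe well above background on at least 1 of the 36 arrays. The rule kept 68 of 77 mapped probes, for 56 of the 63 Serpin genes with a mapped probe, out of 20981 named genes kept by the same rule in the series. Female C57BL/6 J mice aged 6 to 8 weeks received X-rays to the whole body, given once as a surface dose of 1 or 2 Gy, of 4 or 8 Gy or of 12 Gy, or were sham irradiated in the same kind of container (0 Gy). Liver and lung were taken after 48 hours, with 3 mice for each of the 6 doses, so 18 arrays per tissue. No group carried an engineered allele. The irradiated groups were each compared with the same 3 sham irradiated mice of their tissue, so these comparisons share their controls.

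A typical serpin presents an exposed loop as bait: the protease cuts the loop, and the serpin snaps into a more stable form that traps the protease bound to it. Clade A holds secreted serpins that the liver releases into plasma, among them the antitrypsin and antichymotrypsin relatives and carriers of hormones that no longer inhibit a protease. Clades C to G hold regulators of clotting, clot lysis and complement, clade H a collagen chaperone, and clade B serpins that stay inside cells, where many guard leukocytes and epithelia against their own proteases.

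Of the 56 genes, 24 belonged to clade A and 21 to clade B. In the RefSeq annotation of assembly GRCm38.p6, 23 of the clade A genes lie on chromosome 12, where expansions in the mouse left runs of close copies, and Serpina7 lies on the X chromosome. The clade B genes lie in clusters of 9 on chromosome 1 and 12 on chromosome 13. Values are log2 of the spot intensity after background correction and quantile normalization, so 1 unit is a 2-fold difference, and levels of different probes were not set against each other. A probe was called changed where the log2 fold change (log2FC) exceeded 1 in size and the Benjamini-Hochberg adjusted p of limma, adjusted over all tested probes, was under 0.05. Genes with several probes are given by the brightest. Serpina1a to Serpina1e are near-identical copies and the Serpina3 genes are related copies, so a probe of 1 copy may also hybridize with another and their separate values are uncertain. The rule's edge ran between Serpinb9d, Serpinb9g and Serpine3, whose brightest probes were each well above background on 1 lung array with mean log2 levels over all arrays of 3.99, 3.96 and 4.43, and 7 genes on no array (Serpina16, Serpinb13, Serpinb3b, Serpinb3d, Serpinb9b, Serpinb9c and Serpinb9f) at 3.44 to 4.26.

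The arrays found 46.1% to 54% of spots well above background in liver and 54.1% to 64% in lung, and arrays of the same dose and tissue correlated at r of 0.973 to 0.993 over all probes. The labels tell the samples apart by a sample number, used here as the mouse number, and p-values measure the spread between these samples. The slides followed the doses. Slide 1 held the liver arrays of 0 and 1 Gy and 2 of the 3 of 2 Gy, slide 2 most of the higher liver doses, slide 3 the liver of 2 mice of 12 Gy and the lung of 0 and 1 Gy, slide 4 the lung of 2 and 4 Gy and 2 mice of 8 Gy, and slide 5 the lung of 8 Gy mouse 25 and of all 12 Gy mice. The 4 arrays of slide 5 had median spot intensities of 80 to 85, against 107.5 to 120.5 on slide 4. In lung the effect of 2 Gy and above cannot be told apart from slide. In liver no array of 4 Gy or above shared a slide with those of 0 and 1 Gy. There dose can be separated from slide only through the 2 Gy arrays, which lay on slides 1 and 2. B cell markers fell in both tissues: of 15 B cell genes, 7 of 13 tested in liver and 12 of 14 in lung were called lower at 12 Gy. Of all probes, 1.33% in liver and 4.3% in lung were called lower at that dose. In whole tissue, fewer cells of a type and less RNA per cell cannot be told apart.

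**Figure D1:**
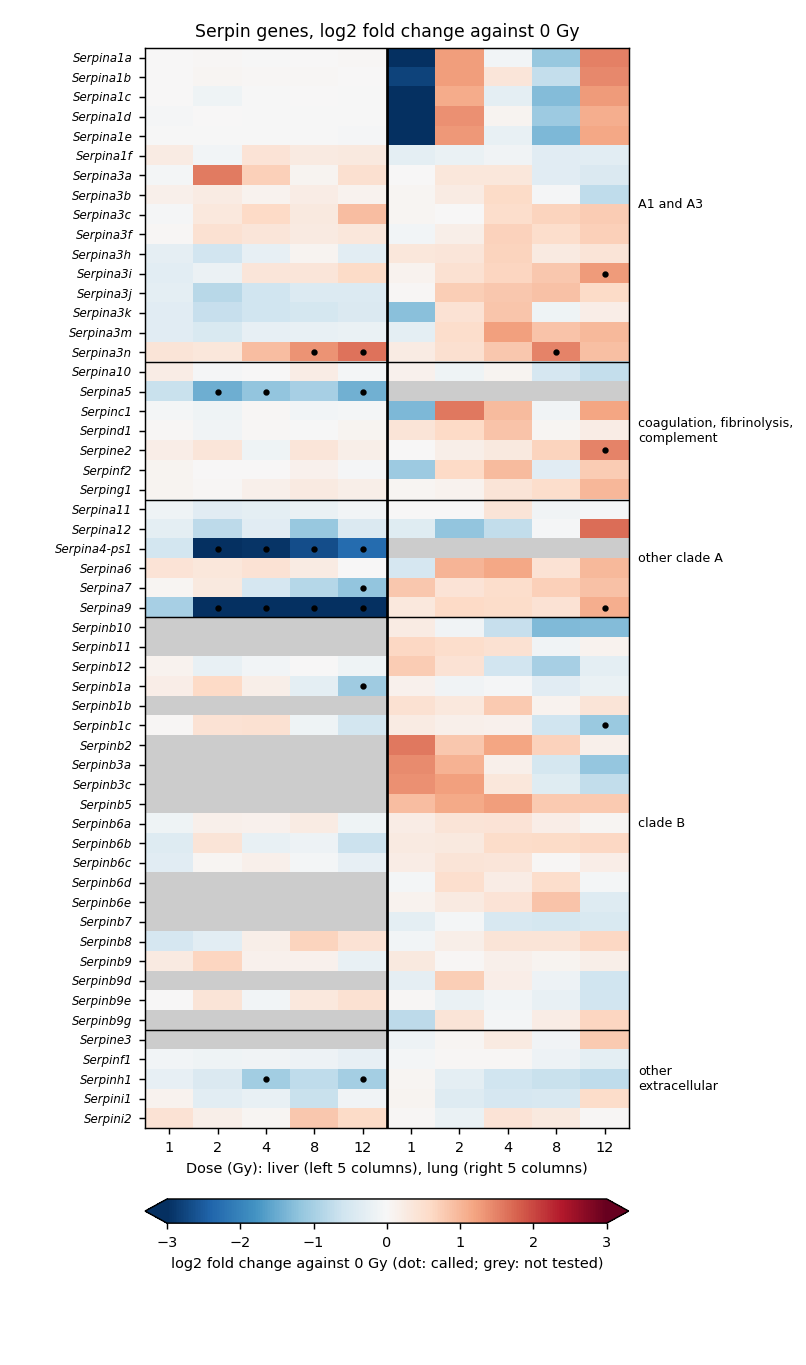
Log2 fold change of the Serpin genes (vertical axis, ordered by role) at each of the 5 doses from 1 to 12 Gy against 0 Gy in liver and in lung (horizontal axis), with the colour clipped at 3 in either direction, dots for called changes and grey for genes not tested in that tissue. In liver the strongest colours are the lower values of Serpina9 and Serpina4-ps1 from 2 Gy on, Serpina3n carries dots for higher values at 8 and 12 Gy, and dots in lung begin at 8 Gy.

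In sham irradiated mice the family was split between the tissues: 24 genes, most of them for plasma serpins, were higher in liver and 13, of which 8 were of clade B, higher in lung. At 0 Gy, 44 of 68 Serpin probes differed between lung and liver, 14 higher in lung and 30 higher in liver, when 35.5% of all 47376 probes were called, 18.3% higher in lung and 17.3% higher in liver. Of the 16 antitrypsin and antichymotrypsin relatives, 12 were lower in lung and only Serpina3a was higher, by at least 3.03-fold. Serpina1a to Serpina1e, the antitrypsin genes whose best known target is neutrophil elastase, were lower in lung by 7.83 to 9.63 on the log2 scale. Of the 8 regulators of clotting, clot lysis and complement, 6 were lower in lung. Serpinc1, which encodes antithrombin, showed the largest difference of the family, with a log2FC of -11.07 (mean log2 level 6.21 in lung and 17.29 in liver, n = 3 mice each). Serpine2, protease nexin 1, was higher in lung, by 4.49.

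Clade B went the other way. Of its 21 genes, 8 were higher in lung and only Serpinb8 was lower, at -2.61. Serpinb6b, from the group of intracellular inhibitors around Serpinb6a, was 31.1-fold higher in lung (14.14 against 9.19 on the log2 scale), and Serpinb9, which protects cytotoxic lymphocytes from their own granzyme B, was higher by 2.53. Serpinb10, a serpin of blood-forming cells, was at least 6.75-fold higher in lung, since no liver array of 0 Gy lay well above background. Serpinh1, the collagen chaperone also called HSP47, was 9.94-fold higher in lung. On this joint scale Serpina9, known as centerin and as a serpin of germinal centre B cells, was not called with its brightest probe (log2FC -0.90, limma adjusted p = 0.12) and was called lower in lung with the second (-1.30, adjusted p = 0.0144).

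**Figure D2:**
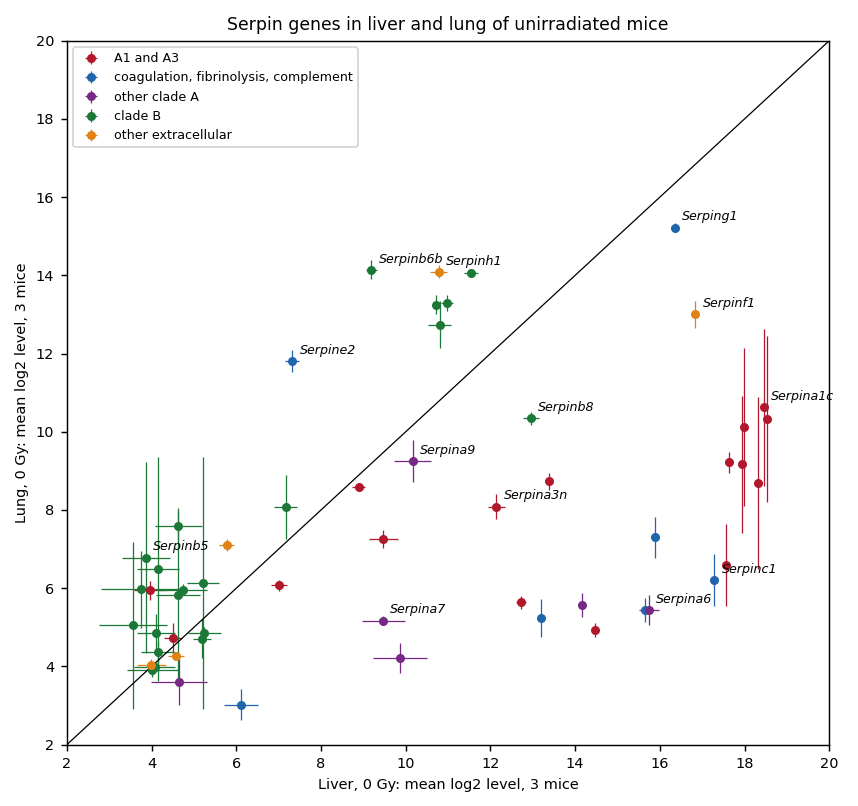
Mean log2 level of the Serpin genes in the lung (vertical axis) against the liver (horizontal axis) of the 3 sham irradiated mice, both tissues normalized together, with bars of 1 SD and the line of equal levels. Plasma serpins such as Serpinc1 lie far below the line and Serpinb6b, Serpine2 and Serpinh1 above it, with Serpina9 near it.

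In liver 7 Serpin genes were called at 1 dose or more, and most of those were lower than at 0 Gy. Against 0 Gy, 0 of 55 tested Serpin probes were called at 1 Gy (limma; 9 at an unadjusted p under 0.05), where 0.0339% of all 38362 tested probes were called. The count was 4 at 2 Gy, 5 at 4 Gy, 4 at 8 Gy and 8 at 12 Gy, beside shares of all probes of 0.245%, 0.944%, 2.21% and 2.06%. At 12 Gy 7 of the 8 were lower and 1 higher, where 1.33% of all probes were called lower and 0.73% higher. Over all doses, 8 of 55 probes (14.5%, of 7 genes) were called at 1 dose or more, where 3.17% of all probes were. Serpina9, Serpina4-ps1, Serpina5, Serpina7, Serpinb1a and Serpinh1 fell and Serpina3n rose. Serpina5 is counted here although it was kept only through its 0 Gy arrays, which favours a fall. The linear trend over dose, given as the log2 change across 12 Gy, was called for 6 of 55 probes beside 2.03% of all probes. The median log2FC at 12 Gy was -0.05 over the Serpin probes and 0.01 over all probes. The Serpin median includes the antitrypsin probes, whose liver values quantile normalization sets, so it does not measure stability of the family.

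In lung no Serpin probe of 64 was called at 1, 2 or 4 Gy (limma; 5, 3 and 16 at an unadjusted p under 0.05), where 0.0227%, 0.443% and 1.46% of all tested probes were. At 8 Gy 1 probe was called beside 2.52% of all probes, and at 12 Gy 6 beside 7.32%. Of these 6, 5 were higher and 1 lower, where 3.03% of all probes were called higher and 4.3% lower. Over all doses 7 of 64 probes (10.9%, of 5 genes) were called at 1 dose or more, where 7.8% of all probes were. Serpina3n, Serpina3i, Serpina9 and Serpine2 rose and Serpinb1c fell. The lung trend was called for 6 probes beside 7.05% of all probes. The median log2FC at 12 Gy was 0.39 over the Serpin probes and 0.09 over all probes.

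**Figure D3:**
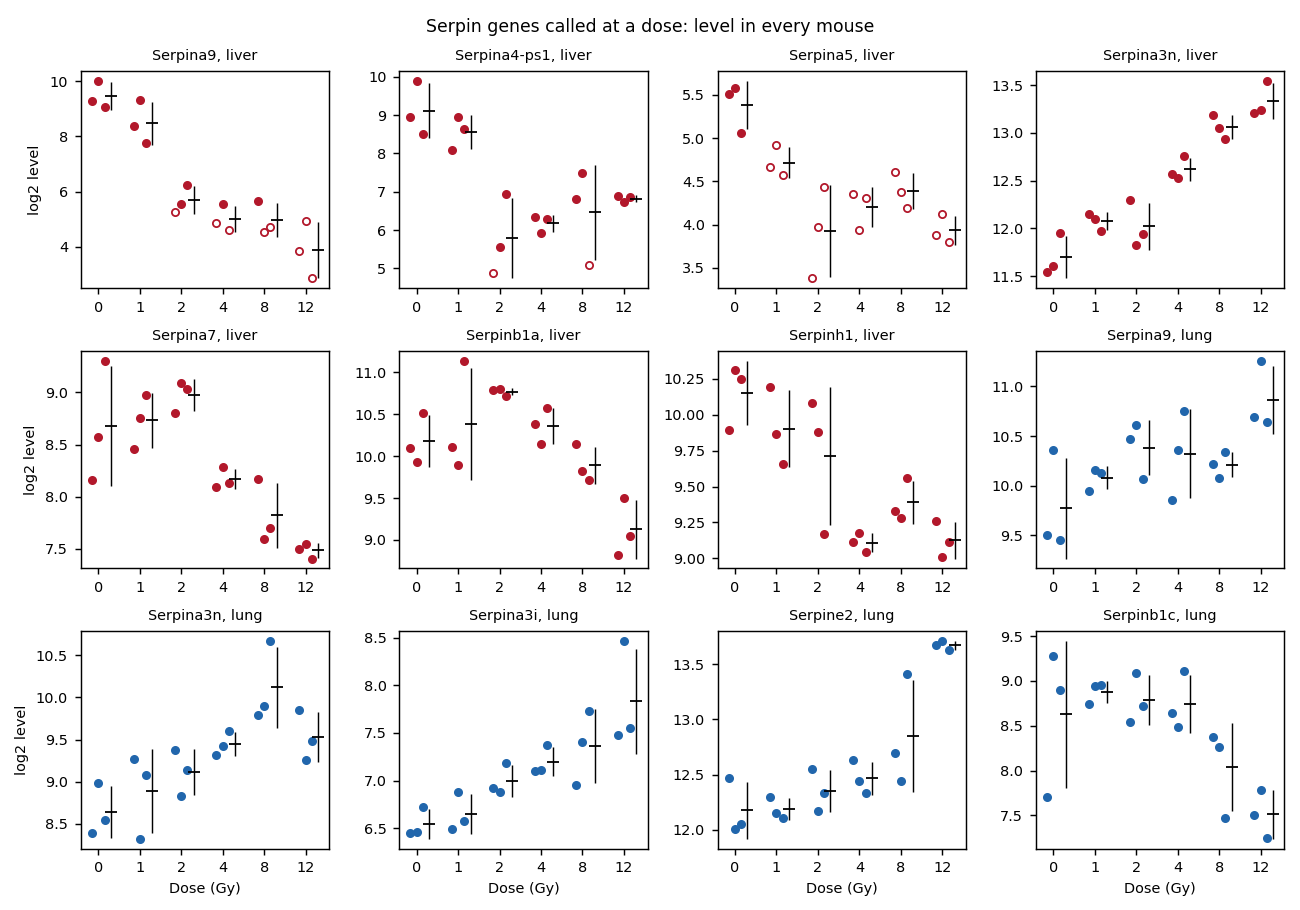
Log2 level in each mouse (vertical axis) by dose in Gy (horizontal axis) for the 7 genes called in liver and the 5 called in lung, filled where the array measured the probe well above background and open where it did not, with the mean and 1 SD of each dose. Serpina9 and Serpina4-ps1 drop between 1 and 2 Gy in liver, Serpina3n climbs in both tissues and Serpine2 is highest in the 12 Gy lungs.

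Serpina9 gave the largest fall of the family in liver and the opposite direction in lung. In liver the probe read 9.30, 10.02 and 9.07 in the 3 sham irradiated mice, 8.37, 9.30 and 7.75 at 1 Gy, 5.26, 5.56 and 6.24 at 2 Gy, 4.88, 5.55 and 4.61 at 4 Gy, 5.67, 4.55 and 4.71 at 8 Gy and 3.84, 4.92 and 2.88 at 12 Gy. Every mouse from 2 Gy up lay below every mouse of 0 and 1 Gy, and at 12 Gy none of the 3 arrays measured the probe well above background. The level was 13.7-fold lower at 2 Gy (log2FC -3.78, SE 0.508, limma adjusted p = 0.00323), 21.9-fold lower at 4 Gy and 22.4-fold lower at 8 Gy. At 12 Gy it was at least 28.9-fold lower (adjusted p = 1.53e-05). A second Serpina9 probe gave the same direction, with a log2FC of -3.55 at 2 Gy and -3.96 at 12 Gy. With slide as a term the fall at 4 Gy was -5.29 (adjusted p = 0.0533), while the arrays of slide 1 alone, a setting chosen after seeing the data, gave -4.05 at 2 Gy (adjusted p = 0.0467).

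In lung Serpina9 read 9.51, 10.36 and 9.46 at 0 Gy and 10.69, 11.26 and 10.64 at 12 Gy, with every 12 Gy mouse above every sham irradiated mouse. The log2FC was 1.09 (SE 0.264, limma adjusted p = 0.00972) and the second probe was called too (adjusted p = 0.0145). The call was lost with slide as a random block (1.06, adjusted p = 0.111) and without 0 Gy mouse 1 (0.95), 0 Gy mouse 21 (0.93) or 12 Gy mouse 16 (0.89). The trends of the tissues differed, lung minus liver, by 6.03 on the log2 scale over 12 Gy (SE 0.909, adjusted p = 4.45e-05).

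B cell genes were called lower in both tissues, the direction of Serpina9 in liver and the opposite of its direction in lung. Ms4a1, which encodes the B cell antigen CD20, went in liver from 6.86, 7.20 and 7.33 at 0 Gy to 3.32, 3.15 and 3.80 at 12 Gy, where no array measured it well above background. In lung Ms4a1 went from 11.33, 12.53 and 13.17 to 6.16, 6.09 and 7.27. The summed B cell list spanned 10.66 to 10.97 at 0 Gy and 9.34 to 9.46 at 12 Gy in liver, and 14.46 to 15.57 and 12.24 to 12.59 in lung. The genes of germinal centre B cells did not follow in the same number, with 0 of 4 tested called lower in liver at 12 Gy and 1 of 5, Gcsam, in lung. Their summed level in liver was 10.62 to 11.24 at 0 Gy, 9.30 to 10.28 at 1 Gy, 9.44 to 10.12 at 4 Gy, where Bcl6 was called lower (-1.40, adjusted p = 0.0402), and 10.64 to 11.40 at 12 Gy. The part of B cells in the Serpina9 values was not tested.

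**Figure D4:**
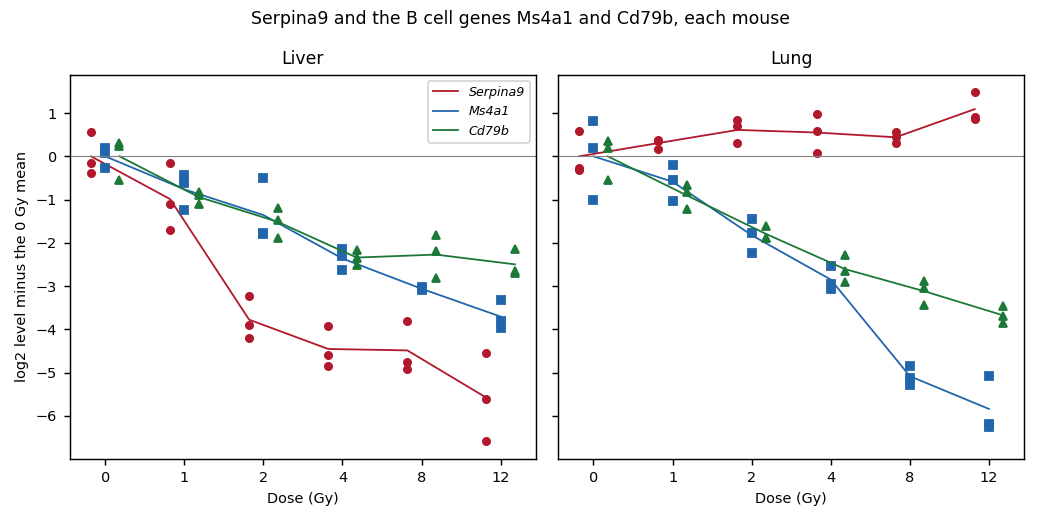
Log2 level minus the mean of the sham irradiated mice (vertical axis) by dose in Gy (horizontal axis) for Serpina9 and the B cell genes Ms4a1 and Cd79b, 1 point per mouse, in liver and in lung. The liver values of Serpina9 and the B cell genes all drop with dose, while in the 12 Gy lungs Serpina9 lies above 0 and the B cell genes below it.

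The neighbours of Serpina9 on chromosome 12 gave mixed values. In the order of the RefSeq annotation Serpina11, Serpina9, Serpina12, Serpina4-ps1, Serpina5 and Serpina3a follow each other. Serpina11 stayed level in liver at 12 Gy (log2FC -0.08). Serpina4-ps1, a transcribed pseudogene related to the kallistatin gene, read 8.95, 9.90 and 8.51 at 0 Gy, 8.09, 8.95 and 8.64 at 1 Gy, 4.87, 5.56 and 6.94 at 2 Gy, 6.33, 5.92 and 6.28 at 4 Gy, 6.82, 7.48 and 5.08 at 8 Gy and 6.88, 6.72 and 6.86 at 12 Gy. As with Serpina9, all mice from 2 Gy up lay below all mice of 0 and 1 Gy. The level was 10-fold lower at 2 Gy (log2FC -3.33, SE 0.563, limma adjusted p = 0.0165), 7.66-fold at 4 Gy, 6.32-fold at 8 Gy and 4.93-fold lower at 12 Gy (-2.30, adjusted p = 0.0225). Without 0 Gy mouse 11, the highest of the controls, all 4 calls were lost (adjusted p = 0.11, 0.0676, 0.0514 and 0.114, log2FC -2.94, -2.55, -2.27 and -1.91). The 2 Gy call was also lost without 2 Gy mouse 3 or 13, the 4 Gy call without 4 Gy mouse 14 and the 12 Gy call without any other array but that of 0 Gy mouse 21. With slide as a term the values at 4, 8 and 12 Gy were -4.66, -4.38 and -3.96 (adjusted p = 0.0791, 0.0568 and 0.117).

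Serpina5, the protein C inhibitor, which acts on enzymes of clotting and reproduction, was measured above background in liver at 0 Gy only, at 5.52, 5.58 and 5.07. All irradiated mice lay lower, at 4.92 at most, and none was well above background. No lung array measured it well above background either. The gene was thus kept and tested only through the control arrays where it was high. That filter favours a fall, so the p-values below are not independent support for it. At 8 Gy it was not called. The level was at least 2.62-fold lower at 2 Gy, 2.21-fold at 4 Gy and 2.06-fold lower at 12 Gy (limma adjusted p = 0.0112, 0.0126 and 0.00154). A larger offset in the background correction removed all 3 calls (log2FC -0.49, -0.43 and -0.50), as did leaving out 0 Gy mouse 11 at 2 Gy (-1.36, adjusted p = 0.0749) and 0 Gy mouse 1 or 11 or 4 Gy mouse 14 at 4 Gy.

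Among the hormone carriers only the thyroid hormone carrier was called. Serpina7, thyroxine-binding globulin, read 8.16, 8.57 and 9.30 in liver at 0 Gy, 8.46, 8.76 and 8.98 at 1 Gy, 8.80, 9.09 and 9.03 at 2 Gy, 8.10, 8.28 and 8.13 at 4 Gy, 8.17, 7.59 and 7.70 at 8 Gy and 7.50, 7.55 and 7.41 at 12 Gy. The 12 Gy mice all lay below the controls, among which mouse 21 stood highest. The log2FC was -0.86 at 8 Gy (limma adjusted p = 0.0326, under the fold threshold) and -1.19 at 12 Gy (SE 0.234, adjusted p = 0.00635), and without 0 Gy mouse 21 it was -0.88 at 12 Gy. With slide as a term the 12 Gy value was -1.26 (adjusted p = 0.317). The dose trend was -1.41 in liver (adjusted p = 0.000327) and 0.56 in lung (adjusted p = 0.16), and the trends differed by 1.73 (SE 0.333, adjusted p = 0.000593). Serpina6, corticosteroid-binding globulin, had a liver log2FC of 0.02 at 12 Gy (SE 0.149).

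Serpina3n is a secreted antichymotrypsin relative that can inhibit granzyme B and is made in the acute phase response. It was the only serpin called higher at a dose in both tissues. In liver it read 11.54, 11.60 and 11.95 at 0 Gy, 12.15, 12.10 and 11.97 at 1 Gy, 12.30, 11.83 and 11.94 at 2 Gy, 12.57, 12.53 and 12.76 at 4 Gy, 13.19, 13.05 and 12.94 at 8 Gy and 13.21, 13.24 and 13.55 at 12 Gy. From 4 Gy up every mouse lay above all mice of 0, 1 and 2 Gy. The level was 0.92 higher at 4 Gy on the log2 scale (limma adjusted p = 0.00473, under the fold threshold), 2.57-fold higher at 8 Gy (log2FC 1.36, SE 0.15, adjusted p = 0.000137) and 3.12-fold higher at 12 Gy (1.64, adjusted p = 1.64e-05). Both calls were kept under every alternative and with each array of the compared doses left out. The dose trend was 1.61 (adjusted p = 2.98e-06) and lost its call with slide as a term (1.43, adjusted p = 0.0509).

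In lung Serpina3n read 8.39, 8.98 and 8.55 at 0 Gy, 9.27, 8.33 and 9.08 at 1 Gy, 9.38, 8.83 and 9.13 at 2 Gy, 9.32, 9.43 and 9.60 at 4 Gy, 9.79, 9.89 and 10.67 at 8 Gy and 9.85, 9.26 and 9.49 at 12 Gy. The 8 Gy mice all lay above the controls, with mouse 25, whose array was on slide 5, the highest. The level was 2.78-fold higher at 8 Gy (log2FC 1.48, SE 0.275, limma adjusted p = 0.00437), and 1.20 without mouse 25 (adjusted p = 0.0218). At 12 Gy the difference was 0.89 (adjusted p = 0.0316), short of the fold threshold. The trend of 1.05 (adjusted p = 0.0089) lost its call with slide as a random block (0.99) and without 0 Gy mouse 1 or 21, 1 Gy mouse 12 or 8 Gy mouse 25 (0.89).

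Some other acute phase genes rose in liver too, the strongest of them from a lower dose than Serpina3n. Of 11 acute phase genes, 2 were called higher at 2 Gy and 2 at 4 Gy, 5 at 8 Gy and 4 at 12 Gy. The shares of all probes called in either direction at these doses were 0.245%, 0.944%, 2.21% and 2.06%. Saa1, serum amyloid A1, had a log2FC of 2.19 at 1 Gy (limma adjusted p = 0.0889), 4.29 at 2 Gy, 3.84 at 4 Gy, 3.92 at 8 Gy and 3.84 at 12 Gy, where Serpina3n had 0.33 at 2 Gy. Lcn2, lipocalin 2, was called at 8 and 12 Gy with 1.36 and 1.08. The summed list spanned 19.07 to 19.17 at 0 Gy, 20.18 to 20.26 at 2 Gy and 19.98 to 20.33 at 12 Gy. In lung Saa3 was called higher at 8 Gy (2.47) and Saa1 and Saa3 at 12 Gy (2.24 and 3.00).

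In liver at 12 Gy the antichymotrypsin relatives of the same cluster moved less than Serpina3n. In lung at 12 Gy Serpina3i (log2FC 1.29) and Serpina3m (0.98, not called) moved more than Serpina3n (0.89, not called). Serpina3i read 6.45, 6.46 and 6.73 in lung at 0 Gy, 6.96, 7.40 and 7.73 at 8 Gy and 7.48, 8.47 and 7.56 at 12 Gy, with the 8 and 12 Gy mice all above the controls. The level was 2.44-fold higher at 12 Gy (log2FC 1.29, SE 0.245, limma adjusted p = 0.00241), and a second probe gave 1.13 (adjusted p = 0.0117). Without 12 Gy mouse 16, the highest, the first probe gave 0.97 and the second 0.82 (adjusted p = 0.00893 and 0.0581), so neither was called. In liver a Serpina3f probe that is not the gene's brightest had a called trend of 1.03 (adjusted p = 0.000327), under the threshold at 0.97 to 1.00 without 0 Gy mouse 1, 1 Gy mouse 22, 8 Gy mouse 25 or 12 Gy mouse 16, while the brightest had a log2FC of 0.34 at 12 Gy. Serpina3c reached 0.92 in liver at 12 Gy (adjusted p = 0.00573) and 0.76 in lung (limma adjusted p = 0.00973), both under the fold threshold. The antitrypsin genes Serpina1a to Serpina1e had liver log2FC of -0.03 to 0.02 at 12 Gy, but their probes lay at the top of the scale, with Serpina1c at 18.24 to 18.71 over the 18 liver arrays, where quantile normalization sets the values, so that no stability can be read from them.

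The promoters of Serpina3n, Serpina3i and Serpina3f, the Serpina3 genes with a called rise in dose comparison or trend, are shown because their rise was called. They were picked for that direction and are not adjacent: among the Serpina3 genes between them, none of which was called, Serpina3h, Serpina3j, Serpina3k and Serpina3m had liver log2FC of -0.31, -0.40, -0.43 and -0.20 at 12 Gy. Each runs from 250 bases before the start of the gene to 50 after it, on the plus strand of the RefSeq assembly GRCm38.p6, and 46 of the 56 Serpin genes had such a sequence. Capitals mark matches to TTCNNNGAA, the spaced form that STAT proteins such as STAT3 bind, and to ACANNNTGT, the core of glucocorticoid receptor elements; each pattern reads the same on both strands.
Serpina3n (chr12:104406458-104406757): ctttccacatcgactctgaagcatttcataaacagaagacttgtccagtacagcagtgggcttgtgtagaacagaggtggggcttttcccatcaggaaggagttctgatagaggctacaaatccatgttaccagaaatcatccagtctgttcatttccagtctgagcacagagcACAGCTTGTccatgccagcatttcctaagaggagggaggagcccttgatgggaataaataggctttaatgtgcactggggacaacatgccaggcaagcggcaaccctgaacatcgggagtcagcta
Serpina3i (chr12:104262872-104263171): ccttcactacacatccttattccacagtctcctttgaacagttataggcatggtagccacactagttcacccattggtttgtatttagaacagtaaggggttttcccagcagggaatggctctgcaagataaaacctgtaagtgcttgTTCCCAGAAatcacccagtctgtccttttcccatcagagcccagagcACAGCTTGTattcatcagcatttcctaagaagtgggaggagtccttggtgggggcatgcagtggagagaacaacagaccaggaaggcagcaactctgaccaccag
Serpina3f (chr12:104214383-104214682): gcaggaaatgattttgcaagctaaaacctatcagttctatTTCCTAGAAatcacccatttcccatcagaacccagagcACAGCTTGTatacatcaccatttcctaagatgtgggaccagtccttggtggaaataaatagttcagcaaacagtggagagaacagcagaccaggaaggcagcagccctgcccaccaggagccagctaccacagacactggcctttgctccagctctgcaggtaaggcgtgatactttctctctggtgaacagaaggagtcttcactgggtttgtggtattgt
All 3 windows held the letters ACAGCTTGT, a match to ACANNNTGT, which occurred in 6.85% of the 32851 promoters of the same length and in 11 of the 46 Serpin promoters. Serpina3i and Serpina3f also held a match to TTCNNNGAA, found in 8.3% of all promoters and in 5 Serpin promoters. The windows of Serpina3n and Serpina3i matched at 127 of 279 aligned bases without gaps (45.5%), with a longest shared run of 15 bases. These matches describe the letters alone, and binding was not measured.

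Among the regulators of clotting, clot lysis and complement, Serpine2 was the gene called in lung, while Serpina5 of this group fell in liver as given above. Serpine2, a cell-bound inhibitor of thrombin and plasminogen activators, read 12.47, 12.01 and 12.05 in lung at 0 Gy, 12.30, 12.15 and 12.11 at 1 Gy, 12.55, 12.17 and 12.33 at 2 Gy, 12.63, 12.44 and 12.33 at 4 Gy, 12.70, 12.44 and 13.41 at 8 Gy and 13.67, 13.71 and 13.63 at 12 Gy. All 12 Gy mice lay above every other mouse, and next to them came 8 Gy mouse 25, the other array of slide 5. The level was 2.82-fold higher at 12 Gy (SE of the log2FC 0.209, limma adjusted p = 0.000258), with a log2FC of 1.37 with slide as a random block (adjusted p = 0.00825). With slide as a term the dose trend fell from 1.45 (adjusted p = 1.01e-05) to 0.50 (adjusted p = 0.799). The trends of lung and liver differed by 1.51 (SE 0.251, adjusted p = 0.000139).

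Serping1, the C1 inhibitor that holds back complement and kallikrein, came close to a call in lung. It read 15.56, 15.31 and 15.39 at 0 Gy, 15.84, 15.78 and 16.21 at 8 Gy and 16.38, 16.42 and 16.43 at 12 Gy, so that the 8 and 12 Gy mice lay above the controls. The log2FC at 12 Gy was 0.99 (SE 0.146, limma adjusted p = 0.000388), just short of the fold threshold. The plasma inhibitors were not called in liver, with 12 Gy log2FC of -0.05 for Serpinc1, 0.09 for Serpind1, heparin cofactor II, and -0.04 for Serpinf2, the plasmin inhibitor alpha 2-antiplasmin. Serpinc1 lay high on the liver scale, where quantile normalization limits how far a value can move, so no stability was read from it.

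In clade B the called changes with dose were falls, of which those at 12 Gy lost their call without some of the mice and the trends did not. With slide as a term none of these trends was called. Serpinb1a, a leukocyte inhibitor of neutrophil elastase, read 10.10, 9.93 and 10.52 in liver at 0 Gy, 10.14, 9.82 and 9.71 at 8 Gy and 8.82, 9.51 and 9.05 at 12 Gy. The 12 Gy mice lay below the controls, with a log2FC of -1.06 (SE 0.273, limma adjusted p = 0.03) and a trend of -1.25 (adjusted p = 0.00526). The 12 Gy call was lost without any 1 of the 3 controls, without 12 Gy mouse 6 or 26 and under 4 alternatives. Neutrophil markers moved little in liver, with the summed list at 13.68 to 13.78 at 0 Gy and 13.77 to 14.11 at 12 Gy and 1 of 11 genes, Camp, called lower, while the macrophage list went from 15.56 to 15.74 down to 15.00 to 15.03. The part of these cells in the Serpinb1a values was not tested.

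Serpinb1c, a close copy of Serpinb1a, read 7.71, 9.28 and 8.89 in lung at 0 Gy and 7.50, 7.79 and 7.25 at 12 Gy. The lowest control lay below 1 of the 12 Gy mice, so the groups overlapped. The log2FC was -1.12 (limma adjusted p = 0.0286), -0.79 without 0 Gy mouse 11, and the call was also lost without 0 Gy mouse 21 or 12 Gy mouse 6 or 26. The trend of Serpinb1c was -1.31 (adjusted p = 0.00141), called without any 1 of the 18 arrays (-1.54 to -1.18). Serpinb10 read 7.78, 8.57 and 8.10 at 0 Gy, 8.09, 7.07 and 5.34 at 8 Gy and 6.95, 7.30 and 6.30 at 12 Gy in lung, with the 12 Gy mice below the controls. Its trend of -1.63 (adjusted p = 0.0114) was called without any 1 array (-1.88 to -1.37) and turned to 0.39 with slide as a term. All 12 T and NK cell markers were called lower in lung at 12 Gy, with the summed list at 14.22 to 15.43 at 0 Gy and 11.70 to 12.56 at 12 Gy; their part in the clade B values was not tested.

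Serpinb6b moved apart in the tissues by small steps. In liver it read 8.23, 8.51 and 8.34 at 0 Gy and 7.96, 7.51 and 7.66 at 12 Gy, lower in all 12 Gy mice. The log2FC at 12 Gy was -0.65 in liver (limma adjusted p = 0.041) and 0.63 in lung (adjusted p = 0.0105), both under the fold threshold. The difference of the trends was 1.05 (SE 0.235, adjusted p = 0.0024), and 0.94 to 0.99 without liver 2 Gy mouse 3 or 23, liver 12 Gy mouse 16 or 26 or lung 0 Gy mouse 1, which loses the call. Serpinb9 had log2FC of -0.22 in liver and 0.18 in lung at 12 Gy, neither called. The brightest Serpinb8 probe had dose trends of 0.89 in liver and 0.64 in lung (limma adjusted p = 0.0197 and 0.00073), under the fold threshold. Its other probe had trends of -0.10 and -0.43. Of the 21 clade B genes, 12 had a brightest probe that was well above background on no liver array.

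Of the other extracellular serpins Serpinh1 was called in liver. It read 9.89, 10.31 and 10.25 at 0 Gy, 10.08, 9.88 and 9.17 at 2 Gy, 9.11, 9.18 and 9.04 at 4 Gy, 9.33, 9.28 and 9.56 at 8 Gy and 9.26, 9.01 and 9.11 at 12 Gy. The 4, 8 and 12 Gy mice all lay below the controls, and 2 Gy mouse 23, the only 2 Gy array on slide 2, lay among them. The log2FC was -1.04 at 4 Gy and -1.02 at 12 Gy (limma adjusted p = 0.0135 and 0.00714), and with slide as a term -0.22 and -0.07 (adjusted p = 0.879 and 0.958). Both calls were also lost without 0 Gy mouse 11 or 21, that at 4 Gy without 4 Gy mouse 4 or 24 and that at 12 Gy without 12 Gy mouse 16, with log2FC of -0.94 to -1.04. In lung it was -0.76 at 12 Gy (adjusted p = 0.0148). None of the 9 fibroblast and stellate cell markers was called in liver at 12 Gy, where the summed list spanned 15.27 to 15.53 beside 15.44 to 15.55 at 0 Gy. Serpina12, vaspin, a serpin of fat tissue, had a called lung trend of 1.91 (adjusted p = 0.0226) that rested on 1 array well above background, 12 Gy mouse 26 at 7.37, without which it was 0.99 (adjusted p = 0.135).

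Serpin levels spanned narrower ranges across the liver arrays than across the lung arrays. The gene sets of the tissues differed, and the liver set held the antitrypsin genes, whose values quantile normalization sets. The ranges therefore do not measure steadiness. The range over all 18 arrays had a median of 1.22 on the log2 scale over 43 liver genes and 2.2 over 54 lung genes, and it exceeded 4 for 2 genes in liver, Serpina9 and Serpina4-ps1, and for 15 in lung. Of the 15, only Serpina12 had a called dose trend. Serpina1c in lung read 8.92, 11.67 and 12.55 at 0 Gy, 7.25, 7.22 and 6.46 at 1 Gy, 12.97, 11.55 and 11.97 at 2 Gy, 8.40, 8.35 and 15.48 at 4 Gy, 7.40, 13.11 and 8.71 at 8 Gy and 12.79, 13.72 and 10.44 at 12 Gy. High and low mice stood side by side at 0, 4 and 8 Gy. In 9 liver-type serpins (Serpina1a to Serpina1e, Serpina3k, Serpina6, Serpinc1 and Serpinf2) the highest lung was 4 Gy mouse 24, which also had the highest lung level of the hepatocyte gene Alb, albumin (14.79, median 9.53 over 17 arrays). Hepatocyte gene Apoa1 was well above background on 9 lung arrays, with a range of 3.79 to 10.52. The summed hepatocyte list of 13 genes spanned 14.97 to 16.46 over the lungs, highest at 4 Gy, with 8 to 13 genes well above background on an array. The part of liver tissue or of its RNA in these lung values was not tested.

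A group of epithelial clade B genes varied from lung to lung in another way. Serpinb5, maspin, an epithelial serpin without known protease inhibition, lay at 5.24 to 6.26 in 7 lungs and at 8.77 to 10.51 in the other 11. Krt5, the keratin of basal and squamous epithelial cells, lay at 9.38 to 10.25 in 7 lungs and at 12.39 to 13.91 in 11, and these were the same 11 mice, with both kinds at every dose. Serpinb5, Serpinb3a, Serpinb3c, Serpinb11 and Serpinb12 were all highest in 2 Gy mouse 13. The summed list of 6 airway epithelium markers spanned 19.68 to 20.06 over the lungs, with all 6 well above background on every array. That list holds Krt5 itself. It also holds Scgb1a1, whose lung log2FC of 0 at 1 and at 2 Gy marks a value that quantile normalization sets. The sum therefore does not show whether epithelial tissue varied between lungs. The part of epithelial tissue in these values was not tested.

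**Figure D5:**
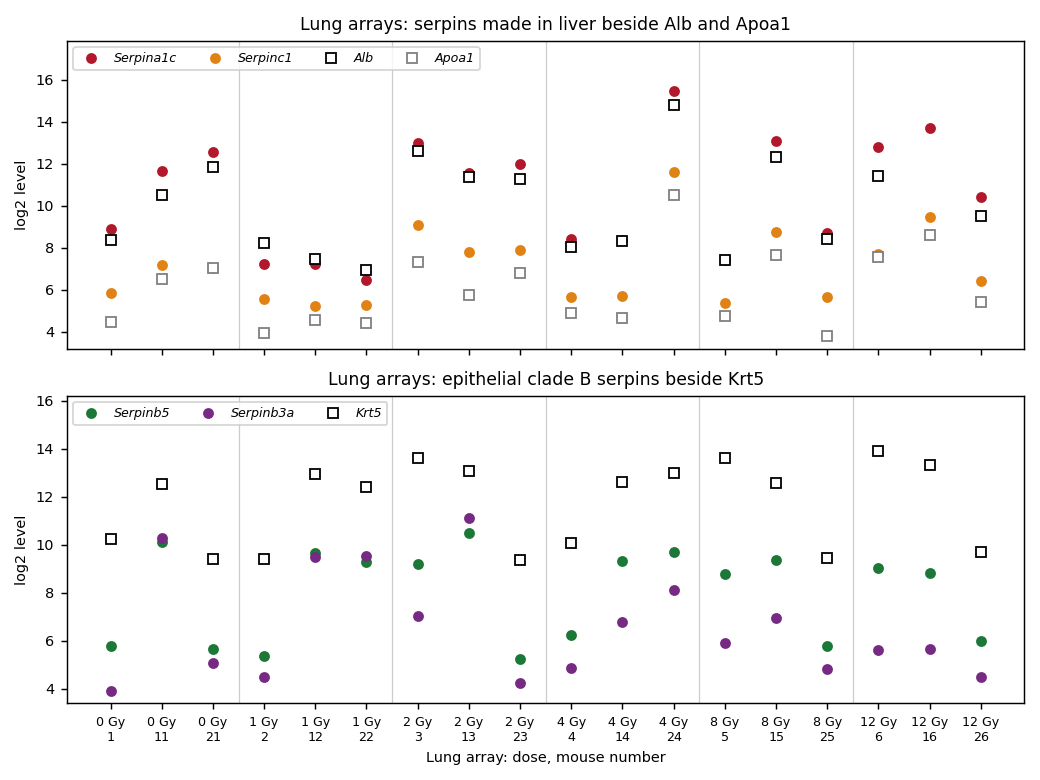
Log2 level (vertical axis) on each of the 18 lung arrays, ordered by dose and mouse (horizontal axis), of Serpina1c and Serpinc1 beside the hepatocyte genes Alb and Apoa1 (top) and of Serpinb5 and Serpinb3a beside Krt5 (bottom). The top genes peak together in 4 Gy mouse 24, and Serpinb5 and Krt5 split the lungs into the same 7 low and 11 high.

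The proteases and cofactors that serpins act on or with were read from a list of 30 genes, 26 tested in liver and 29 in lung. In liver, where 2.21% of all probes were called at 8 Gy and 2.06% at 12 Gy, 2 of the list were called lower at both doses and none higher: Prtn3, the neutrophil proteinase 3 that antitrypsin inhibits (log2FC -1.05 and -1.43), and Gzmb, granzyme B, a target of Serpina3n and Serpinb9 (-1.01 and -1.57). In lung none of the list was called from 1 to 8 Gy, and 4 were at 12 Gy, where 7.32% of all probes were. At 12 Gy Plau, the urokinase that Serpine2 inhibits, had a log2FC of 1.77, F11, clotting factor XI, 1.11, Klkb1, plasma kallikrein and a target of Serping1, 1.36, and Gzmb -1.15. So Plau was called higher in the same 12 Gy lungs as its inhibitor Serpine2, and Gzmb was called lower at 12 Gy in both tissues.

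The trends of lung and liver differed for 5 of the 68 Serpin probes, all with a higher trend in lung, where 7.24% of all 47376 probes were called, 3.56% with a higher trend in lung. They were both Serpina9 probes, Serpina7, Serpinb6b and Serpine2, with differences from 1.05 to 6.03. With slide as a term none of the 5 was called, and the second Serpina9 probe went from 4.36 to -0.045.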

How the data were processed

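RNA of each sample was hybridized to a 1-colour Agilent array and scanned with Feature Extraction 11.5.1.1, and the authors deposited the scanner files, whose values are spot intensities on a linear scale, not yet normalized. From these, medians of spot and local background intensity were corrected by normexp (offset 0), quantile normalized within each tissue and taken to log2 with limma 3.58.1 in R 4.3.3. The study's methods name normexp, quantile normalization and limma, and average the probes of a transcript. The offset, the median intensities, normalization within each tissue and the use of the brightest probe per gene were choices made here. Outlier spots were left out, spots of a probe averaged, and a probe was tested where 1 array of the fit or more had it well above background. The fit had 6 dose groups per tissue. The dose trend was linear, and tissues were compared on 36 arrays normalized together. The call needed a log2 fold change over 1 in size and a Benjamini-Hochberg adjusted p under 0.05. A group with no array well above background gave a bound, against the higher of the probe's signal and the lowest signal well above background on each array. The scripts were tested on simulated data. Serpin genes, the protease list, marker lists and the rule to name every called Serpin gene were chosen with earlier results of these data known. Symbols came from RefSeq accessions (GRCm38.p6), and Serpin genes with no probe mapped were not analysed here. The values of 1 member, counted with the others, are not reported here. Alternatives were a normexp offset of 50, scaling to the 75th percentile, Agilent's processed signals, the deposited table of those signals, other filters on dim probes, slide as a term or random block, a joint fit, mouse number as a replicate block and leaving out each array. Hybridizations limit precision by their number, 3 mice per dose. The miRNA arrays were not used here.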

Additional observations from a re-analysis of the deposited data

Results flagged for a closer look

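The linear dose trends of lung and liver differed for 5 Serpin probes in limma's test of the difference itself, lung minus liver, in log2 units over 12 Gy. For Serpina9 the difference was 6.03 (SE 0.909, adjusted p = 4.45e-05) with the brightest probe and 4.36 (SE 1.01, adjusted p = 0.00307) with the second. Serpina7 differed by 1.73 (SE 0.333, adjusted p = 0.000593), Serpine2 by 1.51 (SE 0.251, adjusted p = 0.000139) and Serpinb6b by 1.05 (SE 0.235, adjusted p = 0.0024). The lung arrays of 8 Gy mouse 25 and of all 12 Gy mice shared slide 5, so the lung side of each difference cannot be told apart from slide. On the liver side, arrays of 0 and 1 Gy lay on slide 1 and those of 4 Gy and above on slides 2 and 3. Dose and slide were joined there only through the 2 Gy arrays.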

How the results depend on the processing

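Of the single values of named genes under the alternatives, 1469 kept their direction and their side of the threshold, 152 kept the direction and lost the call and 4 reversed. All 4 reversed with slide as a term: the lung trend of Serpinb10 (0.39), the trend difference of the second Serpina9 probe (-0.045), its difference between lung and liver at 0 Gy (0.51) and that of Serpinb2 (-0.39). Of the counts of called probes, 235 stayed within 1.5 times and 28 moved. With a normexp offset of 50 the liver counts were 3 at 4 Gy and 5 at 12 Gy, and the lung counts 3 at 12 Gy and 3 for the trend. With slide as a term they were 1 at 4 Gy and 3 at 12 Gy in liver and 0 for the liver trend, the lung trend and the trend difference, and with slide as a random block 2 at 12 Gy in lung. Agilent's processed signal gave 7 at 8 Gy in liver, 12 at 12 Gy and 13 for the trend in lung and 10 for the trend difference. The deposited values gave 7 at 8 Gy in liver and 11 for the trend difference, normexp with the 75th percentile 10 for the lung trend and 9 for the difference, and the joint fit 1 at 4 Gy in lung. The cause was not tested. Leaving out each array in turn gave liver counts of 0 to 0 at 1 Gy, 2 to 5 at 2 Gy, 2 to 5 at 4 Gy, 3 to 6 at 8 Gy, 5 to 7 at 12 Gy and 4 to 7 for the trend, lung counts of 0 to 0 at 1 and 2 Gy, 0 to 1 at 4 Gy, 1 to 3 at 8 Gy, 3 to 7 at 12 Gy and 5 to 7 for the trend, and 4 to 7 for the trend difference and 43 to 46 at 0 Gy. The labels do not say whether liver and lung samples with the same number came from the same mouse, and their deviations correlated at -0.052 to 0.046 over 18 pairs, 0 of them over 0.1. With mouse number as a replicate block 6 probes were called for the trend difference and 44 at 0 Gy. Probes near background have only bounds, and in lung only the 8 Gy arrays lay on more than 1 slide.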
